A study of Mus musculus with 36 samples.

Results

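Prostaglandins are lipid mediators made from arachidonic acid. The cyclooxygenases turn the acid into prostaglandin H2, terminal synthases convert this to prostaglandin E2, prostaglandin D2, prostacyclin and the other prostanoids, and G protein-coupled receptors read them out. In the hypothalamus prostaglandin E2, made largely by vessel cells after an inflammatory stimulus, is known for its part in fever and in other signs of sickness such as loss of appetite. The 10 genes described here are the cyclooxygenases Ptgs1 and Ptgs2, the synthases Ptges, Ptges2, Ptgds and Ptgis, and the 4 prostaglandin E2 receptors Ptger1 to Ptger4. They were chosen by symbol, and for each gene the transcript cluster that names only that symbol and has the highest mean was taken. Of the 10 genes, 8 had such a cluster, among 18820 genes of the array, while Ptgs1 and Ptger1 were not analysed here.

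RNA from the hypothalamus of male C57BL/6 mice was hybridised to Affymetrix Mouse Gene 1.1 ST arrays, 1 array per mouse, 5 h after an intraperitoneal injection of 50 µl. The TNF mice received 15 pg TNFα, the IL-6 Low mice 50 pg IL-6 and the IL-6 High mice 800 pg IL-6. The TNF + IL-6 Low mice received 15 pg TNFα with 50 pg IL-6, the TNF + IL-6 High mice 15 pg TNFα with 800 pg IL-6, and the Control mice saline. Each group had 6 arrays, and 35 of the 36 were used. TNF replicate 4 was left out, which leaves 5 TNF arrays: the median of its correlations with other arrays was 0.302, and for each of the remaining arrays it was 0.988 to 0.994. The values are log2 intensities, and the array medians deviated from their average by -0.145 to 0.0688. The comparisons ask whether cytokines given in the periphery had altered the hypothalamic transcripts of the prostaglandin pathway at 5 h, and all 5 use the same 6 Control arrays. For Control replicates 5 and 6 the labels and the array names give unlike mouse numbers, but both give Control. The arrays were of whole hypothalamus, so fewer cells of a type and less RNA per cell cannot be told apart. Of 10 hypothalamic marker genes the mean log2 intensity was 7.13 to 8.53 over all arrays, and on TNF + IL-6 Low replicate 3 the mean of 6 pituitary genes was 10.58, 4.63 above its group mean.

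The sequences just before the transcription start are shown for 3 members to which the values below return. Ptgs2 and Ptges are the cyclooxygenase and the synthase of the pathway known to be induced by cytokines, and Ptgds is the member with the largest SD between arrays of a group. The windows are the 250 bases before the start in RefSeq's annotation of GRCm38.p6, for Ptgs2 on the plus strand at chr1:150099781-150100030, for Ptges on the minus strand at chr2:30903298-30903547 and for Ptgds on the minus strand at chr2:25469750-25469999. The genes Ptges and Ptgds span chr2:30889471-30931020 and chr2:25466709-25470110. Their windows thus lie inside the gene and precede an inner start, which is the start meant below, and the bases before the outermost start were not searched. Capitals mark matches on either strand to any of 7 motifs.
Ptgs2: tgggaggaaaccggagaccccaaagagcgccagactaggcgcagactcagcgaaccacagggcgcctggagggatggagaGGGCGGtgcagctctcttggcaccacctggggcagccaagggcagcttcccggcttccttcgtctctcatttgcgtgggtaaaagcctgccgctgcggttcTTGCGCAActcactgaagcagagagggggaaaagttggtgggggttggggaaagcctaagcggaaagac
Ptges: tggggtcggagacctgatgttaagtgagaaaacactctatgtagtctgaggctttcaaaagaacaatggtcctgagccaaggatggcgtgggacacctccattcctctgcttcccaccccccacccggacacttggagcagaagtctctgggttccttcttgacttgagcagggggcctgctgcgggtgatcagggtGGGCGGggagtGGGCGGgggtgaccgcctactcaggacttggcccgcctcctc
Ptgds: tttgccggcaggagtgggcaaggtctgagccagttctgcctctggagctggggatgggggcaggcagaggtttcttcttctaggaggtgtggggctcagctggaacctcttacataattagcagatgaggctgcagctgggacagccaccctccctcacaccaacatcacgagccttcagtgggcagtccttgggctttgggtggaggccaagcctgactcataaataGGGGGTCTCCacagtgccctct
The motifs searched were the C/EBP palindrome TTGCGCAA, the core of the cAMP response element TGACG, the E-box CACGTG, the STAT motif TTCNNNGAA, the GC box GGGCGG, the TATA motif TATAAA and the NF-kB consensus. The C/EBP palindrome began 69 bases before the start of Ptgs2 and was found in 0.164% of the 32851 windows of this length. Ptgs2 also held 1 GC box, and Ptges held 2, which began 53 and 42 bases before its start. The GC box was found in 32.7% of all windows. The NF-kB consensus matched Ptgds once, 22 bases before the start, and 7.25% of all windows. The STAT motif, in 7.02% of all windows, and the cAMP response element core, in 17.8%, matched none of the 8 members with a window (Ptgs1, Ptgs2, Ptges, Ptges2, Ptgds, Ptger2, Ptger3 and Ptger4). A match is a match of letters only, and where none was found these letters are not in the window.

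None of the 8 measured genes passed the test in any group. At an adjusted p under 0.05 (limma with Benjamini-Hochberg adjustment over 15049 genes) 0 members and 0 genes of the array were called in each of the 5 comparisons with Control, so that the background was 0%. At an unadjusted p under 0.05 the background was 5.29% of all genes in TNF mice, 1.4% in IL-6 Low mice, 2.07% in IL-6 High mice, 9.58% in TNF + IL-6 Low mice and 2.05% in TNF + IL-6 High mice. At that level 1, 1, 2, 1 and 1 of the 8 members were counted in these groups, or 6 of 40 values. Prostacyclin synthase gave 4 of the 6, Ptgds 1 and Ptger2 1. Of the 40 differences from Control 30 were below 0, or 6, 5, 7, 5 and 7 of the 8 members in the same order of groups. Of all genes tested 44.6%, 54.1%, 47.4%, 55.9% and 62.3% were below Control in these groups. All 5 comparisons use the same Control arrays, so the 40 values are not independent. They lay between -0.48 and 0.20 on the log2 scale, with none beyond a fold of 1.5. The median difference of the 8 members was -0.05 in TNF mice, -0.07 in IL-6 Low mice, -0.12 in IL-6 High mice, -0.07 in TNF + IL-6 Low mice and -0.07 in TNF + IL-6 High mice. Over all genes tested it was 0.01, -0.01, 0.00, -0.02 and -0.02 in the same groups. In each of the 40 cases the range of the treated arrays overlapped that of the Control arrays. The share of such overlaps over all genes was not counted.

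**Figure D1:**
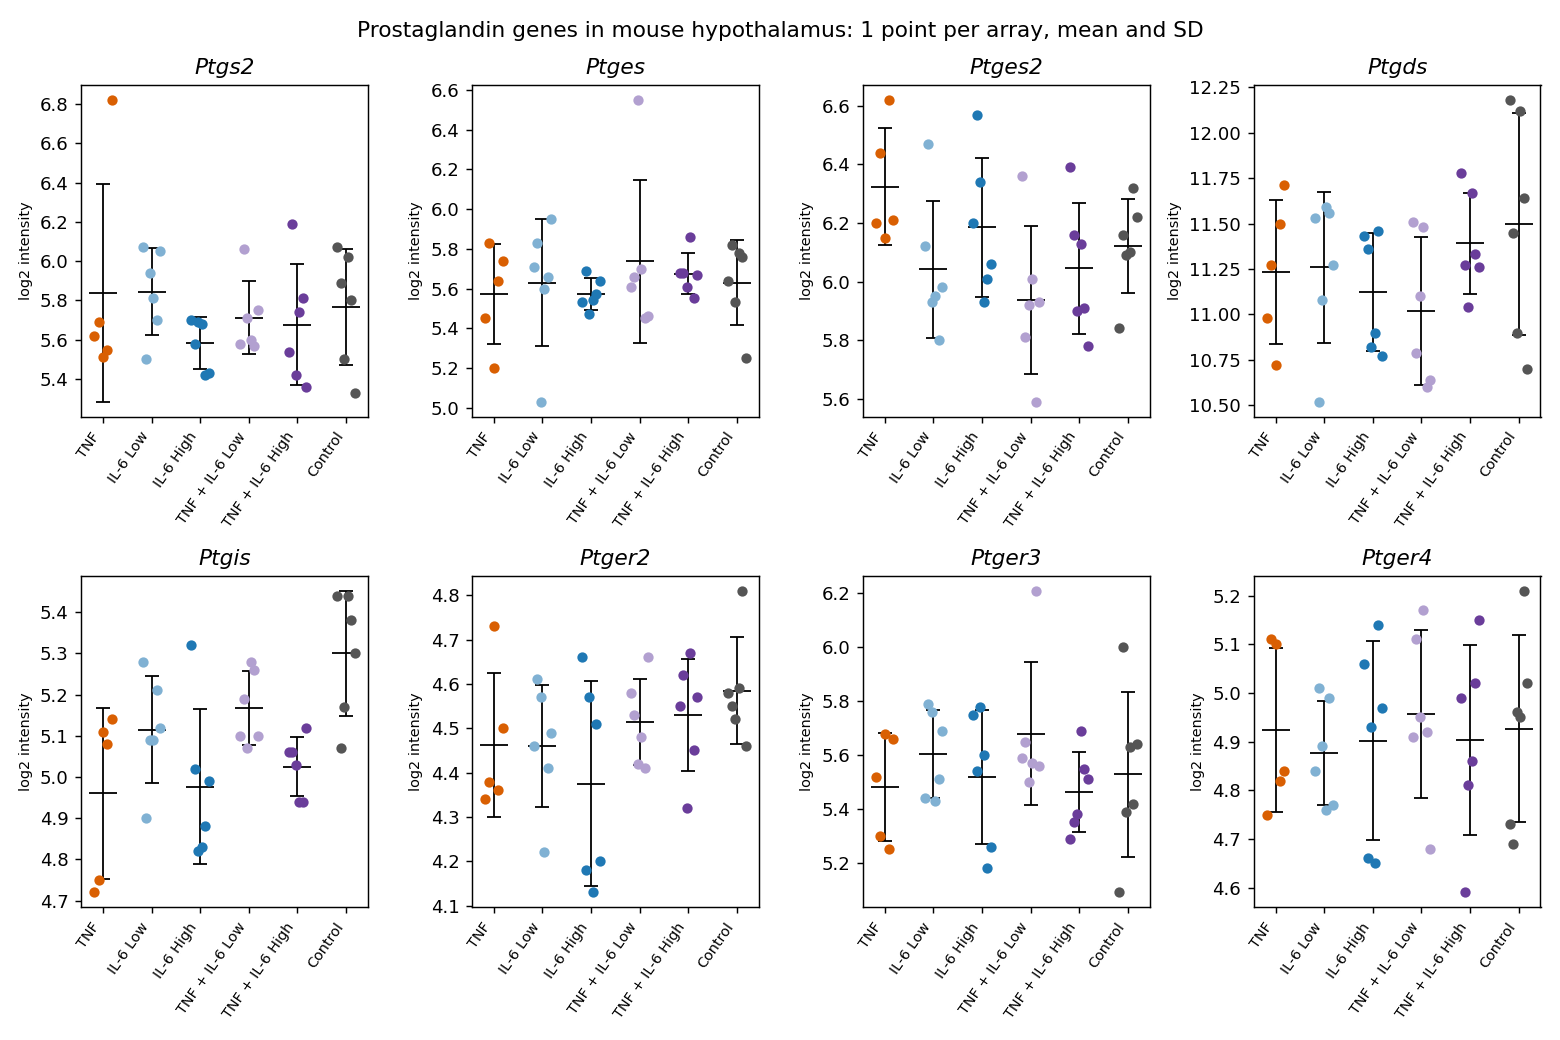
Log2 intensity of the 8 measured genes (vertical axis, a scale of its own in each panel) in the 5 treated groups and Control. Each point is 1 array, and the line and bars are the mean and SD of 5 TNF arrays or 6 arrays of another group. In every panel the ranges of treated and Control arrays overlap, and for Ptgis the 6 Control arrays, at 5.07 to 5.44, lie towards the top.

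Ptgs2, or cyclooxygenase-2, is the inducible enzyme of the first step. Its log2 intensity was 5.62, 5.69, 5.51, 5.55 and 6.82 on the 5 TNF arrays. In IL-6 Low it was 5.50 at the lowest, 5.88 at the median and 6.07 at the highest, and among the IL-6 High arrays 5.42, 5.63 and 5.70. In TNF + IL-6 Low these values were 5.57, 5.65 and 6.06, in TNF + IL-6 High 5.36, 5.64 and 6.19, and in Control 5.33, 5.85 and 6.07. One TNF array, replicate 6, thus stood above all others, while the other 4 TNF arrays lay inside the Control range. The TNF mean differed from Control by 0.07 (SE 0.17), with a 95% interval of -0.28 to 0.41 and an adjusted p of 0.978. Without TNF replicate 6 the difference was -0.18. The difference was largest in IL-6 High mice, at -0.19 (SE 0.16, 95% interval -0.51 to 0.14), where all 6 arrays lay below the Control mean.

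The genes nearest to Ptgs2 over the 35 arrays, by Pearson's r of deviations from the group means, were Abi3bp (0.763), Foxc1 (0.744), Maf (0.678), Pdzrn3 (0.678) and Ets1 (0.664). Foxc1 encodes a transcription factor needed for the development of the meninges. With the mean of 14 genes of meningeal fibroblasts Ptgs2 had r = 0.551 and rho = 0.513 (permutation tests within groups, adjusted p = 0.0206 and 0.0786 over 112 relations). Without IL-6 Low replicate 2 and Control replicate 6, the 2 arrays farthest from the median of the list, r was 0.462. TNF replicate 6 was still included there. Within the rows of the array plate r was 0.803, 0.603, 0.187 and 0.835. These rows held 5, 10, 9 and 5 treated arrays with 1, 2, 2 and 1 Control arrays, so an r within a row rests on few arrays. On TNF replicate 6, where Ptgs2 was highest, the meningeal genes were 0.65 above the group mean and the immediate early genes 0.48 above it. With 17 response genes of NF-kB and STAT3 r was 0.27 (adjusted p = 0.379), and with 15 immediate early genes 0.387 (adjusted p = 0.558), which became -0.00571 without the 2 farthest arrays. The response list held 20 genes, and only the 17 over the minimum intensity were tested. Of these 17 response genes, which include Nfkbia, Socs3 and Lcn2, 0 reached an unadjusted p under 0.05 in any of the 5 comparisons (limma). Their median difference was between -0.05 and 0.00.

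Ptges, or microsomal prostaglandin E synthase-1, is the inducible synthase that works with cyclooxygenase-2. The 5 TNF arrays had 5.45, 5.83, 5.20, 5.64 and 5.74. The lowest, median and highest arrays were at 5.03, 5.68 and 5.95 in IL-6 Low mice, at 5.47, 5.56 and 5.69 in IL-6 High mice and at 5.45, 5.63 and 6.55 in TNF + IL-6 Low mice. They were at 5.55, 5.67 and 5.86 in TNF + IL-6 High mice and at 5.25, 5.70 and 5.82 in Control mice. The groups overlapped throughout, and 1 array, TNF + IL-6 Low replicate 3, was far above the rest. This is the array with the high pituitary genes, and the part of pituitary tissue in its Ptges value was not tested. The difference from Control was between -0.06 (TNF, SE 0.15) and 0.11 (TNF + IL-6 Low, SE 0.14). In TNF + IL-6 Low it was -0.05 without that array. The nearest genes were Tnfrsf1a (0.793), which encodes a receptor of TNFα, Rcn3 (0.725), Mdm1 (0.702), H2-K1 (0.699), an antigen-presenting molecule, and Iqgap2 (0.695). These r values include TNF + IL-6 Low replicate 3 and were not computed without it. With the 17 response genes of NF-kB and STAT3 Ptges had r = 0.464, and 0.219 without that array and IL-6 High replicate 4. With the 6 pituitary genes r was 0.37, and -0.108 without that array and IL-6 Low replicate 4. Ptges and Ptgs2 themselves had r = 0.212 over the 35 arrays.

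Ptges2, or microsomal prostaglandin E synthase-2, is the form that most tissues hold without a stimulus. It had 6.20, 6.44, 6.15, 6.62 and 6.21 on the TNF arrays, with a mean of 6.32 ± 0.20 (SD, n = 5). In Control it was 5.84 at the lowest, 6.13 at the median and 6.32 at the highest. All 5 TNF arrays were above the Control mean of 6.12 and 2 were above every Control array. The difference was 0.20 (SE 0.13, 95% interval -0.06 to 0.46) with an adjusted p of 0.911, and in TNF + IL-6 Low mice it was -0.19 (SE 0.12). The other 3 groups lay between -0.08 and 0.06. A test of any difference among the 6 groups gave an unadjusted p of 0.0739 for Ptges2 and of 0.00487 for Ptgis, the only member under 0.05, with 3.01% of all genes under 0.05. Ptges2 moved with the astrocyte genes from array to array (r = 0.65, rho = 0.662, adjusted p = 0.00616 and 0.0028, permutation tests), and r was 0.668 without the 2 farthest arrays. Within the rows of the array plate this r was 0.972, 0.432, 0.713 and -0.172, the first and the last over 5 treated arrays and 1 Control array each. With the genes of microglia and macrophages r was 0.559 and rho 0.563 (adjusted p = 0.0275 and 0.0484, permutation tests), and with those of endothelial cells -0.598 and -0.39 (adjusted p = 0.0206 and 0.232). With those of smooth muscle cells and pericytes r was -0.553 and rho -0.471 (adjusted p = 0.0149 and 0.0968). The genes nearest to Ptges2 were Ube2g2 (0.875), B3gat3 (0.853), Fbxo31 (0.851), Cygb (0.836) and Dok7 (0.836). The astrocyte genes themselves had a median difference of 0.02 in TNF mice, with 8 of 10 above Control, and of -0.10 in TNF + IL-6 Low mice, with 9 of 10 below. The 9 genes of microglia and macrophages had 0.08 in TNF mice, with 8 above Control, and -0.07 in TNF + IL-6 Low mice, with 7 below. The part of these cells in the Ptges2 differences was not tested.

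Ptgds, lipocalin-type prostaglandin D synthase, makes prostaglandin D2 and is known to be made in the leptomeninges, the choroid plexus and oligodendrocytes. The gene lies at chr2:25466709-25470110 (GRCm38.p6). It had 10.98, 11.27, 10.72, 11.50 and 11.71 on the TNF arrays. The lowest, median and highest arrays were at 10.52, 11.40 and 11.59 in IL-6 Low mice, at 10.77, 11.13 and 11.46 in IL-6 High mice and at 10.60, 10.95 and 11.51 in TNF + IL-6 Low mice. In TNF + IL-6 High they were at 11.04, 11.30 and 11.78, and in Control at 10.70, 11.55 and 12.18. Control held the 2 highest arrays of all, replicates 1 and 4 at 12.18 and 12.12, and 1 of the lowest, replicate 6 at 10.70. The mean was below Control in every treated group, with a difference of -0.26 in TNF mice, -0.24 in IL-6 Low mice, -0.38 in IL-6 High mice, -0.48 in TNF + IL-6 Low mice and -0.11 in TNF + IL-6 High mice (SE 0.22 to 0.23). For TNF + IL-6 Low the 95% interval was -0.92 to -0.04, with an unadjusted p of 0.0338 and an adjusted p of 0.514 (limma). Leaving out Control replicate 1 gave -0.34, and leaving out Control replicate 6 gave -0.64. The mean of the 5 treated groups differed by -0.29 (SE 0.17), or by -0.16 without Control replicate 1, -0.17 without Control replicate 4 and -0.45 without Control replicate 6. Within the 4 rows of the plate this difference was -0.74, -0.18, -0.54 and 0.43, so that its sign was not the same in all rows. These rows held 1, 2, 2 and 1 Control arrays, so the first and the last value each rest on 1 Control mouse.

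The Ptgds values followed the meningeal fibroblast genes closely. Its SD within groups was 0.42, larger than that of 98.8% of the genes tested. Over the 35 arrays its deviations from the group means had r = 0.91 and rho = 0.895 with the mean of the 14 meningeal genes (adjusted p = 0.00112 for both, permutation tests over 112 relations). Without the 2 farthest arrays, IL-6 Low replicate 2 and Control replicate 6, r was 0.882, and within the 4 rows of the plate it was 0.822, 0.916, 0.823 and 0.99. With the genes of the choroid plexus r was 0.209 and with those of oligodendrocytes 0.0245. The nearest genes were Emp3 (0.937), the sulfate transporter Slc13a4 (0.926), the dicarboxylate transporter Slc13a3 (0.922), Fmod (0.913), the matrix proteoglycan fibromodulin, and Aebp1 (0.903). Slc13a4 and Fmod are also in the meningeal list.

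**Figure D2:**
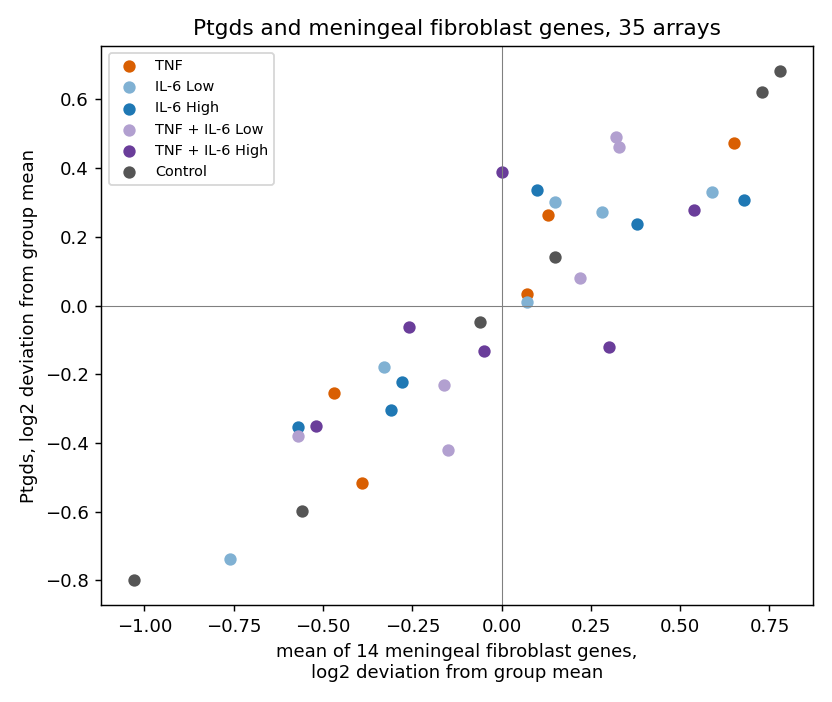
Ptgds (vertical axis) against the mean of 14 meningeal fibroblast genes (horizontal axis), both as log2 deviations from the mean of the array's own group. Each of the 35 points is 1 array, coloured by group, and the points follow 1 line with r = 0.91, from Control replicate 6 at the lower left to Control replicate 1 at the upper right.

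Of the 14 meningeal genes 13 were below Control in TNF mice, 14 in IL-6 Low mice, 14 in IL-6 High mice, 14 in TNF + IL-6 Low mice and 13 in TNF + IL-6 High mice, with median differences of -0.50, -0.29, -0.68, -0.57 and -0.14. The mean log2 intensity of the list ranged over 5.88 to 7.0 in TNF mice, 5.72 to 7.07 in IL-6 Low mice, 5.65 to 6.90 in IL-6 High mice, 5.74 to 6.64 in TNF + IL-6 Low mice, 6.11 to 7.17 in TNF + IL-6 High mice and 5.76 to 7.57 in Control mice, so that every treated group overlapped Control. No gene of the list passed at an adjusted p under 0.05 (limma), and 0, 0, 7, 3 and 0 of the 14, all below Control, had an unadjusted p under 0.05 in these treated groups. Of all genes tested it was 5.29%, 1.4%, 2.07%, 9.58% and 2.05%, in either direction. The part of the meninges in the differences of Ptgds was not tested.

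Ptgis, prostacyclin synthase, is a cytochrome P450 of vessel walls that makes prostacyclin, a dilator of vessels and an inhibitor of platelets. The gene lies at chr2:167203194-167252150 (GRCm38.p6). Its log2 intensity was 4.72, 4.75, 5.11, 5.08 and 5.14 on the TNF arrays. The lowest, median and highest arrays were at 4.90, 5.11 and 5.28 in IL-6 Low mice and at 4.82, 4.94 and 5.32 in IL-6 High mice. They were at 5.07, 5.15 and 5.28 in TNF + IL-6 Low mice and at 4.94, 5.05 and 5.12 when the mice had received TNF + IL-6 High. The Control arrays had 5.07 at the lowest, 5.34 at the median and 5.44 at the highest. Below every Control array lay 2 of 5 TNF arrays, 5 of 6 IL-6 High arrays and 5 of 6 TNF + IL-6 High arrays. So did 1 of 6 arrays in IL-6 Low and 1 of 6 in TNF + IL-6 Low. Of the 29 treated arrays 28 lay below the Control mean of 5.30, the exception being IL-6 High replicate 1. These counts all use the same Control arrays, and such counts were not made over all genes.

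Relative to its error the difference of Ptgis from Control was the largest of the 8 genes in every group but TNF + IL-6 Low. It was -0.34 in TNF mice (SE 0.09, 95% interval -0.53 to -0.15), -0.32 in IL-6 High mice (SE 0.09, -0.50 to -0.14) and -0.28 in TNF + IL-6 High mice (SE 0.09, -0.46 to -0.09). In IL-6 Low the difference was -0.18 and in TNF + IL-6 Low -0.13 (SE 0.09 each). The unadjusted p was 0.000859 in TNF mice, 0.0472 in IL-6 Low mice, 0.000945 in IL-6 High mice, 0.144 in TNF + IL-6 Low mice and 0.00402 in TNF + IL-6 High mice (limma). The adjusted p was 0.911, 1.00, 1.00, 0.592 and 1.00 in these groups, so that none passed. By unadjusted p Ptgis ranked 11 of 15049 genes in TNF mice, 203 in IL-6 Low mice, 2 in IL-6 High mice, 3675 in TNF + IL-6 Low mice and 15 in TNF + IL-6 High mice. The mean of the 5 treated groups differed by -0.25 (SE 0.07, 95% interval -0.39 to -0.11; unadjusted p = 0.000915, adjusted p = 1.00), where Ptgis ranked 5 and 3.08% of all genes had an unadjusted p under 0.05. Within the 4 rows of the plate, which held only 1, 2, 2 and 1 Control arrays, that difference was -0.35, -0.12, -0.35 and -0.20. Leaving out any 1 array gave -0.30 to -0.22, and with all 36 arrays the difference in TNF was -0.23.

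**Figure D3:**
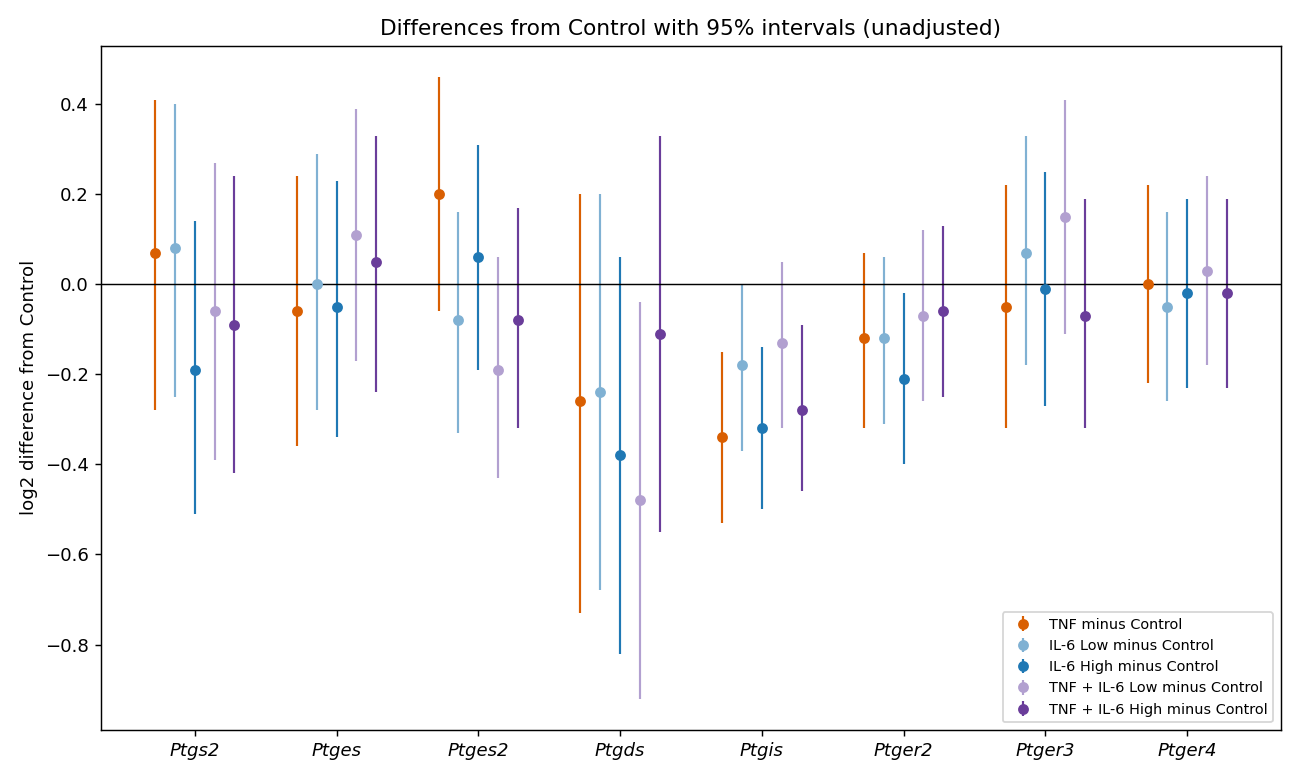
Log2 difference of each treated group from Control (vertical axis) for the 8 genes. Points are the differences of the fit and bars their 95% intervals, unadjusted for the number of genes. The intervals of Ptgis lie below 0 in every group but TNF + IL-6 Low, with an upper bound just under 0 in IL-6 Low mice, and those of Ptgs2, Ptges, Ptges2, Ptger3 and Ptger4 hold 0 in every group.

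The mean of Ptgis lay no lower with both cytokines than with TNFα alone. The mean was 4.96 ± 0.21 in TNF mice (SD, n = 5), 4.98 ± 0.19 in IL-6 High mice and 5.02 ± 0.07 in TNF + IL-6 High mice (n = 6 each), against 5.30 ± 0.15 in Control mice (n = 6). The effect of TNFα in the presence of IL-6 minus its effect in its absence was 0.39 (SE 0.13) at the high dose, with an unadjusted p of 0.00495 and an adjusted p of 0.961. At the low dose it was 0.39 (SE 0.13), with an unadjusted p of 0.00464 and an adjusted p of 0.991 (limma). The contrasts at the high and the low dose hold the same TNF and Control arrays, so their values are not independent of each other. With all 36 arrays both values were 0.28, with an unadjusted p of 0.0847 at the high and 0.0813 at the low dose. At an unadjusted p under 0.05 the contrast held 2 of 8 members and 4.01% of all genes at the high dose, and 1 of 8 members and 3.28% of all genes at the low dose. The other member was Ptger2 at the high dose, at 0.28 (SE 0.13, unadjusted p = 0.0455, adjusted p = 0.961), which was -0.06 with all 36 arrays. Averaged over TNFα, the IL-6 High groups differed from the IL-6 Low groups by -0.14 (SE 0.06, unadjusted p = 0.0337, adjusted p = 0.933), and Ptgis was the only member with an unadjusted p under 0.05 there, beside 3.71% of all genes. The TNF-treated groups set against those without TNFα gave 0 members, beside 5.99% of all genes.

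The intensity behind Ptgis was low, at 26.3 to 43.5 on the linear scale, so that it is not among the genes kept with a minimum of 50. The genes nearest to it were the myosin kinase Mylk3 (0.671), Tgfb1i1 (0.643), Col12a1 (0.619), Fhl5 (0.611) and Fbln1 (0.595). With the meningeal genes Ptgis had r = 0.491 and rho = 0.501 (permutation tests, adjusted p = 0.101 and 0.0921), and with 10 genes of smooth muscle cells and pericytes r = 0.375 and rho = 0.329 (adjusted p = 0.283 and 0.406). Of these 10 genes 8 were below Control in each treated group, with median differences of -0.23 in TNF mice, -0.06 in IL-6 Low mice, -0.17 in IL-6 High mice, -0.19 in TNF + IL-6 Low mice and -0.11 in TNF + IL-6 High mice. An unadjusted p under 0.05 was reached by 5, 0, 1, 3 and 1 of the 10 in these groups, all below Control, and an adjusted p under 0.05 by 0 (limma). The unadjusted share over all genes, in either direction, was 5.29%, 1.4%, 2.07%, 9.58% and 2.05%. The mean of the list ranged over 5.72 to 6.20 in TNF mice, 5.66 to 6.51 in IL-6 Low mice, 5.75 to 6.19 in IL-6 High mice, 5.91 to 6.11 in TNF + IL-6 Low mice, 5.81 to 6.27 in TNF + IL-6 High mice and 5.79 to 6.71 in Control mice. Of 10 genes of endothelial cells 10 were below Control in TNF mice, 4 in IL-6 Low mice, 10 in IL-6 High mice, 7 in TNF + IL-6 Low mice and 9 in TNF + IL-6 High mice. Their median differences were -0.21, 0.02, -0.19, -0.10 and -0.03 in the same groups, and 0 of them had an unadjusted p under 0.05 in any. The mean of the endothelial list ranged over 7.19 to 7.74 in TNF mice, 7.23 to 7.87 in IL-6 Low mice, 7.10 to 7.86 in IL-6 High mice, 7.36 to 7.74 in TNF + IL-6 Low mice, 7.20 to 8.11 in TNF + IL-6 High mice and 7.37 to 7.91 in Control mice. The part of vessel wall cells in the Ptgis differences was not tested.

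Of the receptors of prostaglandin E2, Ptger2, the EP2 receptor that raises cAMP, had a weak signal, at a linear intensity of 17.5 to 28.1, and passed the minimum of 20 on 31 of 35 arrays. The TNF arrays had 4.34, 4.38, 4.73, 4.36 and 4.50 on the log2 scale. In IL-6 High the lowest, median and highest arrays were at 4.13, 4.35 and 4.66, and in Control at 4.46, 4.57 and 4.81. Below every Control array lay 3 of 5 TNF arrays, 3 of 6 IL-6 High arrays and 2 of 6 arrays in each of the other 3 treated groups. The 3 IL-6 High arrays were also under the minimum. How often arrays lay below every Control array was not counted over all genes. The difference in IL-6 High was -0.21 (SE 0.09, 95% interval -0.40 to -0.02), with an unadjusted p of 0.028 and an adjusted p of 1.00 (limma). The other 4 groups differed from Control by -0.12 to -0.06. The genes nearest to Ptger2 were Mtss2 (0.689), Zfp36l1 (0.632), Tgfb2 (0.625), Ttc39d (0.623) and Tmem134 (0.623).

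Ptger3 encodes EP3, the receptor through which prostaglandin E2 acts on preoptic neurons in fever. Its arrays lay between 5.09 and 6.21, with group means of 5.46 to 5.68. The largest difference was 0.15 (SE 0.13, 95% interval -0.11 to 0.41) in TNF + IL-6 Low mice, which became 0.05 without replicate 5, the highest array of all. Its nearest genes were Klhl15 (0.706), Sh3kbp1 (0.655), Hhex (0.637), Mgat2 (0.61) and Eif5 (0.607). Ptger4, the EP4 receptor, also couples to cAMP, and its group means spanned only 0.08, with differences from Control of -0.05 to 0.03 (SE 0.10 to 0.11). The 95% intervals of Ptger4 lay within -0.26 and 0.24 in all 5 comparisons. Ptger4 moved with 10 hypothalamic marker genes (r = 0.567, rho = 0.545, adjusted p = 0.0275 and 0.0484, permutation tests), with r = 0.417 without the 2 farthest arrays. Within the 4 rows of the plate this r was 0.00119, 0.631, 0.864 and 0.56, so that 1 row, of only 5 treated arrays and 1 Control array, did not show it. Avp, the gene of vasopressin and a member of that list, was among its nearest genes (0.618), after Krtap4-7 (0.672), Irx6 (0.643), Acads (0.637) and the orphan receptor Gpr101 (0.622).

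Of the rest of the prostanoid and arachidonic acid pathway no gene passed either. Of 33 further genes tested, 1 above and 3 below Control had an unadjusted p under 0.05 in TNF mice, and 0 passed the adjusted test in any group. The same counts, above and below, were 0 and 1 in IL-6 Low mice, 0 and 1 in IL-6 High mice, 1 and 1 in TNF + IL-6 Low mice and 0 and 1 in TNF + IL-6 High mice. Of all genes tested 5.29%, 1.4%, 2.07%, 9.58% and 2.05% were under that level in these 5 groups, TNF first. The 1 gene above Control in TNF mice was Cbr3, a carbonyl reductase, which had a mean of 4.43 ± 0.26 in TNF mice (SD, n = 5) and 3.89 ± 0.19 in Control mice (n = 6). Its TNF arrays ranged over 4.14 to 4.81 and its Control arrays over 3.59 to 4.15, so that the groups overlapped by little. Its intensity exceeded the minimum of 20 on 3 of 5 TNF arrays, 1 IL-6 High array, 1 TNF + IL-6 High array and 0 of 6 Control arrays. Cbr3 thus entered the test mainly through the group where it was high, against Control values under the minimum, and its difference is not given as a result.

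Among the genes that release arachidonic acid from membranes, the cytosolic phospholipase A2 gene Pla2g4a was at 5.33 ± 0.31 in IL-6 High mice and 5.70 ± 0.16 in Control mice, a difference of -0.37 (SE 0.15). In the other treated groups the mean of Pla2g4a was 5.61 to 5.81, with the highest in TNF mice. Pla2g4e differed by -0.26 (SE 0.09) and the secreted phospholipase gene Pla2g2d by -0.32 (SE 0.10) in TNF mice. In the other treated groups the mean of Pla2g2d was 4.98 to 5.09, against 5.08 in Control mice. For Pla2g4e it was 5.22 to 5.41, against 5.47 in Control mice. Ptgfr, the receptor of prostaglandin F2α, differed by -0.30 (SE 0.12) in TNF mice, and its arrays lay at 3.72 to 4.39 there, against 4.32 to 4.58 in Control mice. Only 1 of 5 TNF arrays and 5 of 6 Control arrays exceeded the minimum for Ptgfr. Ptges3, the cytosolic prostaglandin E synthase, which is also the cochaperone p23, differed by 0.17 (SE 0.08) in TNF + IL-6 Low mice. Each of these 5 genes is given in the group where its unadjusted p was smallest (limma). The adjusted p there was between 0.511 and 1.00. The 13 genes of arachidonic acid supply had median differences between -0.05 and -0.01 in the 5 groups.

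**Figure D4:**
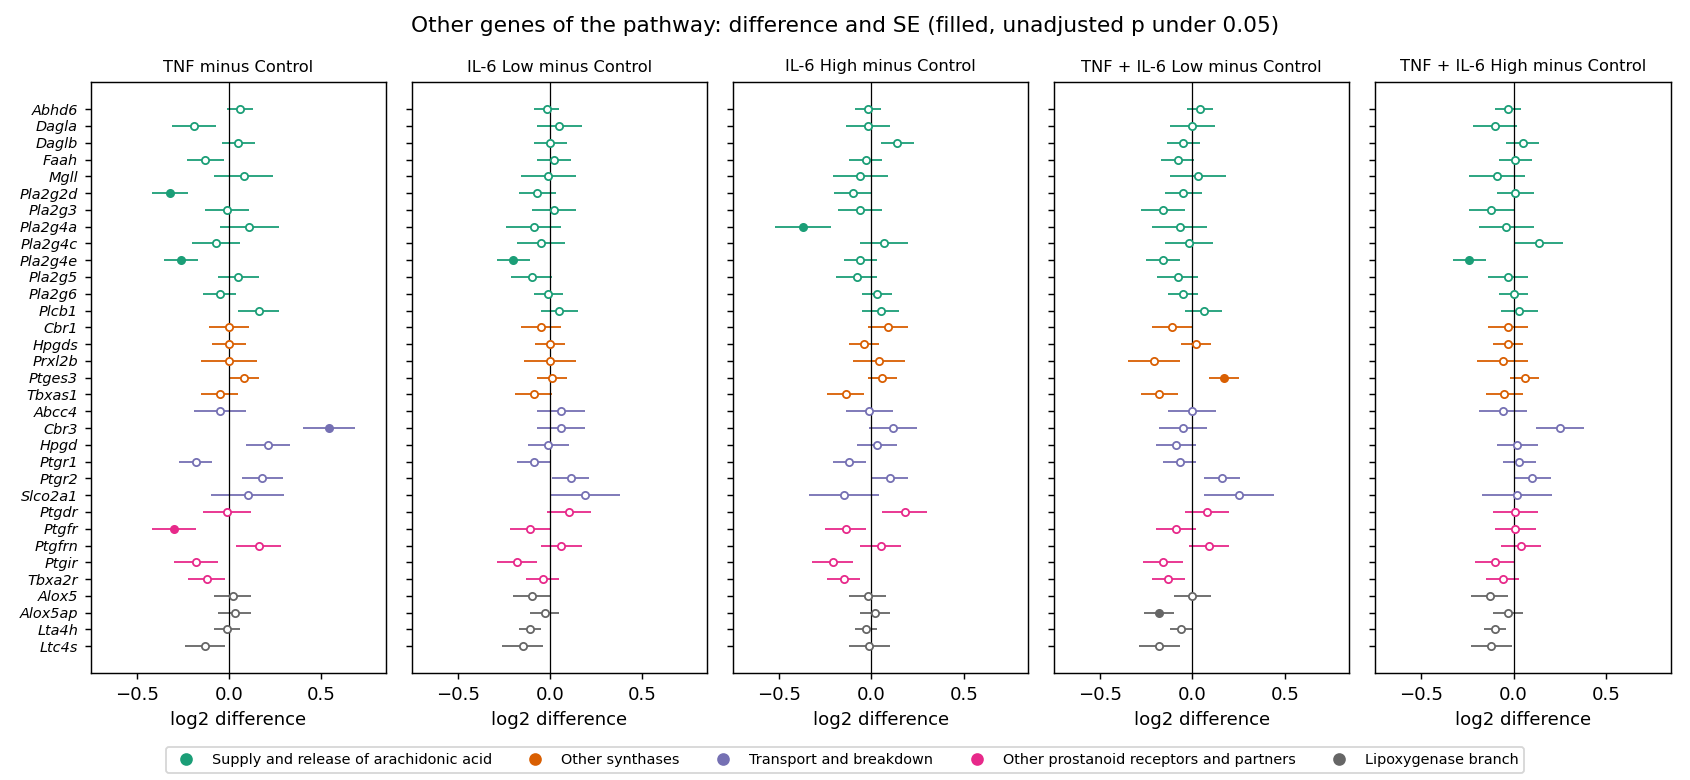
Log2 difference from Control (horizontal axis) of 33 other genes of the pathway, 1 panel per treated group. Points are the differences of the fit with SE bars, coloured by branch and filled at an unadjusted p under 0.05; Cbr3, the point farthest from 0 in TNF, is set against Control arrays that all lie under the minimum intensity.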

How the data were processed

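The authors deposited log2 intensities from RMA (version not given in the sources used here), and no further normalization was applied. Of 35556 transcript clusters, 21218 name 1 gene in the platform annotation, 1881 several and 12457 none. Only the first were used, with the cluster of highest mean for the 1386 genes that have more than 1. Of 18820 genes, the 15049 that exceeded an intensity of 20 on 3 or more arrays were tested. The 35 arrays of the 6 groups entered 1 linear model in limma 3.58.1 (R 4.3.3), with an intensity trend and Benjamini-Hochberg adjustment. The fit was checked on simulated data. The departure of TNFα and IL-6 from additive effects was added after the plan was written. Relations with marker lists used deviations from the group means and two-sided tests over 100000 permutations within groups. The smallest p they can give is 1e-05. Arrays are separate mice, and their number limits the precision: the median SE of a log2 difference was 0.0958 (0.1 for TNF). The members, lists and alternatives were chosen with earlier results of these data known. Pathway genes are named by smallest p, nearest genes by highest r. The main fit held the group only. The rows of the array plate, taken from the array names, were used as a block in an alternative fit. The paper excluded 1 TNF array without naming it. Promoter windows came from RefSeq, with 8 of the 10 genes matched.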

Additional observations from a re-analysis of the deposited data

Results flagged for a closer look

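Of 48 groups of arrays (8 genes in 6 groups), 5 held an array that stood far from the others of its group. The rule flags about 1 in 20 groups of normally distributed values. Its share over all genes of these arrays was not counted, so the 5 are not a trait of the members. Ptgs2 was at 6.82 on TNF replicate 6 and the other TNF arrays at 5.51 to 5.69. Ptgs2 was also at 6.06 on TNF + IL-6 Low replicate 2, with the others at 5.57 to 5.75. Ptges was at 6.55 on TNF + IL-6 Low replicate 3, with the others at 5.45 to 5.70. Ptger3 was at 6.21 on TNF + IL-6 Low replicate 5, with the others at 5.50 to 5.65. Ptger2 was at 4.81 on Control replicate 5, with the others at 4.46 to 4.59.

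TNF replicate 4, which was left out, held 4 members above the highest Control array. These were Ptges at 7.96, against a highest Control array of 5.82, Ptgis at 5.62, against 5.44, Ptger2 at 6.52, against 4.81, and Ptger4 at 5.85, against 5.21. Ptgds was at 8.43 on this array, below every other array.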

How the results depend on the processing

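The number of genes and of members at an adjusted p under 0.05 was 0 in every comparison under all 46 alternatives, of which 35 left out 1 array each; the smallest adjusted p of any gene was 0.0908 and of any member 0.248. The counts of members at an unadjusted p under 0.05 moved. With a minimum intensity of 50, which removes Ptgis, Ptger2 and Ptger4, the count was 0 in each single comparison with Control but TNF + IL-6 Low, and also 0 for the mean of the 5 groups, IL-6 High minus IL-6 Low and the test of any difference. With all 36 arrays it was 0 in IL-6 Low, TNF + IL-6 Low, IL-6 High minus IL-6 Low and any difference, and 1 in IL-6 High. With array weights it was 0 in IL-6 Low and TNF + IL-6 Low, 1 for TNF-treated minus not TNF-treated, and 2 for IL-6 High minus IL-6 Low and for any difference. In these last contrasts 1720, 1037 and 1120 of 15049 genes were under that level with array weights, and 901, 559 and 453 in the main fit. With only the groups compared the count of members was 0 in IL-6 Low and TNF + IL-6 Low, while 1 was counted for IL-6 High. Quantile normalization and median centring each gave 0 in IL-6 Low. Leaving out 1 array gave 0 to 1 for IL-6 Low mice, 1 to 3 for IL-6 High mice, 0 to 2 in TNF + IL-6 Low, 1 to 2 for the mean of the 5 groups, 0 to 2 for IL-6 High minus IL-6 Low and 1 to 2 for any difference. The number of all genes under that level was then 177 to 382, 226 to 408, 635 to 2315, 337 to 782, 349 to 996 and 267 to 885 in this order.

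Of the 40 differences from Control 19 changed sign under some alternative, and 0 of the 6 with an unadjusted p under 0.05. The departure from additive effects of TNFα and IL-6 High for Ptger2 was -0.06 with all 36 arrays and 0.28 without TNF replicate 4. Arrays of the same number lay in the same row of the plate. The mean correlation of their deviations from the group means was 0.0612 (-0.312 to 0.584 over 85 pairs). For arrays of other numbers and groups it was -0.0121, and the main fit did not pair arrays by number. With the replicate block the difference of Ptgds in IL-6 High was -0.38 with an unadjusted p of 0.0482 (limma). This gave 3 members there, and no other count of members changed. The number of genes at an unadjusted p under 0.05 depended more on the setting: in TNF it was 583 (minimum of 50) to 1563 (all 36 arrays), beside 796, and in TNF + IL-6 Low 278 (all 36 arrays) to 1873 (quantile normalization), beside 1442, with 635 without TNF + IL-6 Low replicate 5 and 2315 without replicate 1. It was 64 to 493, beside 211, for IL-6 Low mice, 98 to 504, beside 312, for IL-6 High mice, and in TNF + IL-6 High 75 to 1025, beside 309. The cause was not tested. Low signal limits Ptgis, Ptger2, Ptger4, Cbr3 and Ptgfr.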
